A study of Mus musculus with 6 samples.

Results

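The adipogenic transcription factors of the C/EBP, PPAR and KLF families were followed through osteogenic differentiation of C3H10T1/2 cells in which NFIB or MLL1 had been knocked down. The set was chosen by symbol, as Cebpa, Cebpb, Cebpd, Cebpg, Pparg, Ppard, Ppara, Klf15, Klf5 and Klf4, and all 10 matched a single protein-coding Ensembl gene among the 55401 genes of the count table. C3H10T1/2 is an established mouse mesenchymal line that can be driven toward bone, fat or muscle. RNA was sequenced from cells with a control hairpin (shControl, genotype given as WT), with a hairpin against Nfib (shNFIB) and with a hairpin against Kmt2a, the gene of MLL1 (shMLL1), each before differentiation (day 0) and at day 7. Every day 7 culture, shControl included, was kept in a medium with dexamethasone (0.1 µM), a synthetic glucocorticoid, together with β-glycerophosphate (20 mM) and a stable form of ascorbic acid (100 µg/mL). How the hairpin lines were derived, and whether each grew from a single clone, is not given in the sources used here. Each of the 6 conditions has 1 library and no repeat culture.

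Adipogenesis runs through a cascade of these factors. C/EBPβ and C/EBPδ act early, induced by cyclic AMP and by glucocorticoid, and switch on Pparg and Cebpa, whose products then maintain each other and drive the genes of lipid storage. KLF4 acts upstream of C/EBPβ, KLF5 and KLF15 act upstream of PPARγ, and KLF15 is itself a well-known direct target of the glucocorticoid receptor, so that the dexamethasone of an osteogenic medium also bears on parts of the adipogenic circuit.

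Promoter sequence was read from RefSeq on GRCm38.p6 for the 250 bases before each annotated start. Of the 10 genes, 8 had an entry, with 3 different starts for Pparg, and Cebpd and Klf5 had none. Shown are the promoters of Cebpa, Klf15 and Pparg, the genes on which the comparison of the lines turns, with Pparg at the start that lies farthest into the gene, which carries both of the C/EBP matches found. Capitals mark matches on either strand to 6 sets of letters. The letters TTGGC are those bound by NFI proteins. C/EBP proteins bind TTGCNNAA, where N is any base. The letters searched for KLF proteins were CACCC. PPAR and retinoid receptors bind AGGTCA as a core. The letters searched for the glucocorticoid receptor were AGAACA. The TATA box was searched as TATAAA.
Cebpa, chr7:35119043-35119292, plus strand: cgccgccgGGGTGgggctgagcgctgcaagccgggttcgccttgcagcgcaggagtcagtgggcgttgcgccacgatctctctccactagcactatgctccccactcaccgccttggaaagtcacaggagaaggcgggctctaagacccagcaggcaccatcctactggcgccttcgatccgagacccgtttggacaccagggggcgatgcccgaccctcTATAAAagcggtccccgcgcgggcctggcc
Klf15, chr6:90462326-90462575, plus strand: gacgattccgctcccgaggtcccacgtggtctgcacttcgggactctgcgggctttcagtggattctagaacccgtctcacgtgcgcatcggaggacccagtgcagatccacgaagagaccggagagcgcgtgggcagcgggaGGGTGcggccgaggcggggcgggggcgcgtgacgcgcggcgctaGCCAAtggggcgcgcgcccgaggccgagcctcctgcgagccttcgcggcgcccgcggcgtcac
Pparg, chr6:115421816-115422065, plus strand: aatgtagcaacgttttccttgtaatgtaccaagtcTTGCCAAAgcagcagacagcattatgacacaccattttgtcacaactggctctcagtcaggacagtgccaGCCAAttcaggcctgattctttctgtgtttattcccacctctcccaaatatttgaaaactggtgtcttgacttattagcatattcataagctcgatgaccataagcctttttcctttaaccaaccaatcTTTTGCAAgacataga

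The Cebpa window held the TATA letters 30 bases before the start and 1 KLF match on the opposite strand 242 bases before it, and no match to the NFI letters. The Klf15 window held 1 NFI match 63 bases and 1 KLF match 107 bases before the start. The Pparg window held C/EBP matches 215 and 16 bases before the start, the first of which overlaps 1 of its 2 NFI matches. The window of Klf4 held none of the 6 motifs. The glucocorticoid receptor letters were in none of the 10 windows of the set. Over the 32817 promoters of the table, the NFI letters were found in 41.5%, the KLF letters in 52.0%, the C/EBP letters in 9.57%, the PPAR and retinoid receptor letters in 14.0%, the glucocorticoid receptor letters in 16.1% and the TATA letters in 12.4%. A match is a description of the letters in a window and not a bound site. The G and C content was 66.4% in the Cebpa window, 72.0% in that of Klf15 and 40.8% in that of Pparg, against a median of 52.4% over all promoters. The other two Pparg starts, not printed, had 82.4% and 63.6%, and each held 1 match to the PPAR and retinoid receptor letters, 28 and 9 bases before the start.

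The libraries held between 21608680 and 34774066 counts. Counts were scaled with TMM factors, from 0.908 to 1.13, and levels are given as CPM, counts relative to the scaled size of the library. At each day, the gene targeted by a hairpin was lowest in its own line. Nfib stood at 35.3 and 8.15 CPM there, against 116 and 83.5 CPM with the control hairpin, and Kmt2a at 30.9 and 34.8 CPM against 74.7 and 66.3 CPM. Nfib was also below shControl in shMLL1, at 65.5 CPM at day 0 and 72.7 CPM at day 7. Kmt2a in shNFIB was above shControl, at 86.5 and 94.0 CPM. All 8 mesenchymal markers were above 1 CPM in every library. Of the markers of other cell types, Epcam, Krt18 and Adgre1 had no count in any library and Ptprc, Cdh5 and Kdr stayed at or under 0.123 CPM. Krt8 reached 0.133 CPM, Pecam1 0.779 CPM and Csf1r 0.853 CPM. Others were clearly present, with Tek (endothelial) at up to 25.2 CPM, Cdh1 (epithelial) at up to 8.95 CPM and Cd68 (macrophage) at up to 7.58 CPM. The 8 adipocyte markers summed to between 3.61 and 4.76 CPM at day 0, nearly all of it Fabp4, and at day 7 to 119.8 CPM with the control hairpin, 5.28 CPM in shNFIB and 9.10 CPM in shMLL1.

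Per kilobase of exon, which allows genes to be compared, Klf4 had the highest mean level over the 6 libraries at 49.2 CPM per kb. It was followed by Cebpd at 21.9, Cebpg at 17.8, Pparg at 13.5, Cebpb at 8.59, Ppard at 5.42, Cebpa at 2.89, Klf15 at 2.55 and Klf5 at 0.540 CPM per kb, with Ppara at 0.00848. Neighbours in this order did not differ beyond their spread, in that most exchanged ranks between libraries, except that Ppara was last in each. Klf4 ranked highest of the 10 genes in all 3 day 0 libraries and in shNFIB at day 7, whereas Cebpd ranked highest in shControl and shMLL1 at day 7. Pparg stood above Cebpa per kilobase in every library, by 9.19 against 7.22 CPM per kb in shControl and by 17.7 against 2.79 CPM per kb in shNFIB at day 0. Ppara was at the limit of detection, with 1 count in shControl at day 0, 4 counts in shMLL1 at day 7 and none in the other 4 libraries. Since 3 counts correspond to between 0.0939 and 0.123 CPM, it is left out of the comparisons below.

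**Figure D1:**
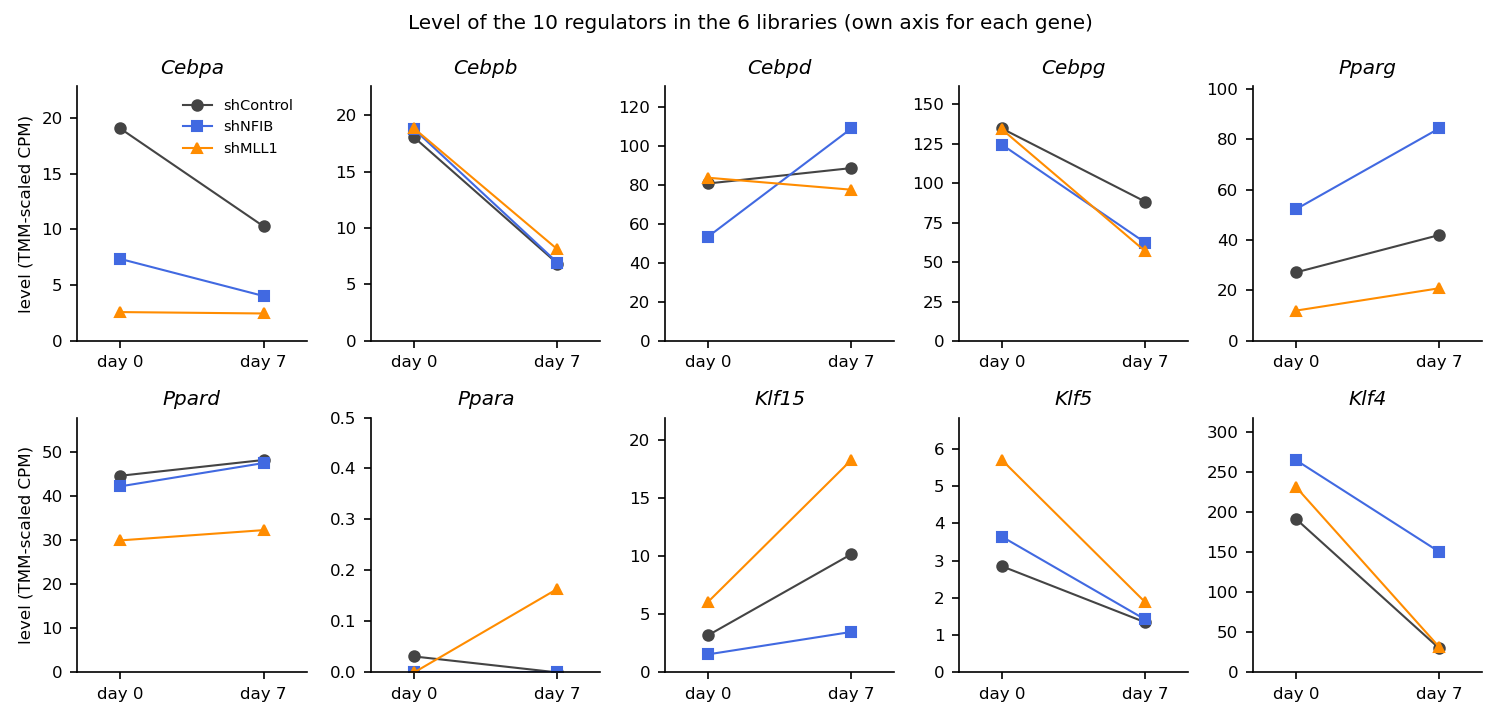
Level of each regulator in TMM-scaled CPM (vertical axis, starting at 0, own scale for each gene) at day 0 and day 7, with 1 point per library and a line joining the libraries of shControl (grey), shNFIB (blue) and shMLL1 (orange). Cebpb, Cebpg, Klf5 and Klf4 lie lower in all day 7 libraries than in all day 0 libraries, and the order of the lines in Pparg and in Klf15 is the same at both days.

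The study asked how cells with reduced NFIB or MLL1 respond to osteogenic medium, and the day comparison sets cells kept in that medium against cells before it. No day 7 culture was kept without the medium. The effects of its components and of the time in culture cannot be told apart. Over the 3 lines, Pparg and Klf15 rose, and Cebpb, Cebpg, Klf5 and Klf4 fell between day 0 and day 7. Cebpa, Cebpd and Ppard did not pass the test. The day effect was fitted across 16660 genes by edgeR's quasi-likelihood test. Each line served as a block, and p-values were adjusted by Benjamini-Hochberg over all of these genes. Of the 9 regulators tested, 2 were called higher and 4 lower, beside 17.4% of all genes called higher and 17.2% called lower. At an unadjusted p under 0.05 there were 6 regulators, beside 47% of all genes. The lines stand in for replicates in this fit, so that its p-values measure the spread between 3 lines with different hairpins. In RNA from whole cultures, fewer cells that express a gene and less RNA per cell cannot be told apart. The adipocyte markers also differed between the days, above all in shControl. Of the other markers, Cd68 (macrophage) rose by 1.80 on the log2 scale, and Cdh1 (epithelial, -3.76), Tek (endothelial, -1.85) and the mesenchymal genes Col1a2 (-1.05), Thy1 (-1.01) and Vim (-1.12) fell. The mesenchymal markers did not move together. Pdgfra (1.81), Pdgfrb (0.66) and Col1a1 (0.59) had coefficients above 0, Prrx1 (-0.58) and Twist1 (-0.19) below 0, and none of these was called. The part of any of these in the changes of the regulators was not tested.

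Among the C/EBP genes, Cebpb (ENSMUSG00000056501, chromosome 2 from 167688915 to 167690418), the early activator of the cascade, measured 18.0 CPM in shControl, 18.7 CPM in shNFIB and 18.8 CPM in shMLL1 at day 0, and at 6.86, 6.94 and 8.11 CPM at day 7. The lines were close together at each day and the days did not overlap. Its log2 fold change was -1.35 (SE 0.22, adjusted p = 0.00406 by edgeR's quasi-likelihood test). Cebpg (ENSMUSG00000056216, chromosome 7 from 35046422 to 35056573) encodes a C/EBP without an activation domain of its own, which pairs with other members. It was at 135, 125 and 134 CPM at day 0 and at 88.4 CPM in shControl, 62.4 CPM in shNFIB and 56.9 CPM in shMLL1 at day 7. All day 7 libraries were below all day 0 libraries, and the day 7 level in shControl was above that in the other two lines. Its log2 fold change was -0.95 (SE 0.20, adjusted p = 0.0106 by edgeR's quasi-likelihood test).

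Cebpd (ENSMUSG00000071637, chromosome 16 from 15887286 to 15891031), which acts beside Cebpb early in adipogenesis, was at 80.7 CPM in shControl, 53.4 CPM in shNFIB and 83.6 CPM in shMLL1 at day 0, and at 88.6, 109 and 77.5 CPM at day 7. The days overlapped, since shNFIB was the lowest library at day 0 and the highest at day 7 whereas shControl and shMLL1 lay close together throughout. The log2 fold change over the lines was 0.35 (SE 0.25, adjusted p = 0.301 by edgeR's quasi-likelihood test). Cebpa (ENSMUSG00000034957, chromosome 7 from 35119293 to 35121928), which encodes the factor that holds adipocytes in their differentiated state, was at 19.0 CPM in shControl, 7.35 CPM in shNFIB and 2.58 CPM in shMLL1 at day 0, and at 10.3, 4.03 and 2.46 CPM at day 7. The lines differed more than the days. Its day coefficient was -0.63 (SE 0.30, adjusted p = 0.133 by edgeR's quasi-likelihood test), and without shMLL1 it was -0.92 with an adjusted p of 0.0265 by the same test.
Some of these counts are uncertain because other genes share exon sequence with them and the strand setting of the counting is not given in the sources used here. Cebpb shares 312 bp with Tmem189 and Cebpd 562 bp with Spidr, both on the opposite strand and with 1259 to 2331 and 906 to 1741 counts. Cebpa shares 51 bp with the antisense gene Gm45091, which had at most 35 counts.

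Of the PPAR genes, Pparg (ENSMUSG00000000440, chromosome 6 from 115360951 to 115490399), the nuclear receptor that directs adipogenesis, was at 27.1 CPM in shControl, 52.2 CPM in shNFIB and 12.0 CPM in shMLL1 at day 0, and at 42.0, 84.2 and 20.9 CPM at day 7. Each line was higher at day 7, but the days overlapped because the lines were far apart. The log2 fold change was 0.70 (SE 0.18, adjusted p = 0.0215 by edgeR's quasi-likelihood test). Ppard (ENSMUSG00000002250, chromosome 17 from 28232700 to 28301474), a broadly expressed receptor for fatty acids, was at 44.5, 42.1 and 29.9 CPM at day 0 and at 48.1 CPM in shControl, 47.4 CPM in shNFIB and 32.2 CPM in shMLL1 at day 7. It had the smallest day coefficient of the 9 genes, 0.13 (SE 0.18, adjusted p = 0.597 by edgeR's quasi-likelihood test), and was lowest in shMLL1 at each day. The fatty acid receptor gene Ppara (ENSMUSG00000022383, chromosome 15 from 85734983 to 85802819) was not tested.

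Of the KLF genes, Klf15 (ENSMUSG00000030087, chromosome 6 from 90462576 to 90475238) measured 3.19 CPM in shControl, 1.55 CPM in shNFIB and 6.06 CPM in shMLL1 at day 0, and at 10.2, 3.48 and 18.3 CPM at day 7. It was higher at day 7 in each line, with shMLL1 highest and shNFIB lowest at each day. The log2 fold change was 1.48 (SE 0.29, adjusted p = 0.00719 by edgeR's quasi-likelihood test). Klf5 (ENSMUSG00000005148, chromosome 14 from 99298691 to 99315036) measured 2.85, 3.64 and 5.70 CPM at day 0 and at 1.34 CPM in shControl, 1.42 CPM in shNFIB and 1.89 CPM in shMLL1 at day 7. Its days did not overlap, and it fell by 1.35 on the log2 scale (SE 0.35, adjusted p = 0.0221 by edgeR's quasi-likelihood test).
Klf4 (ENSMUSG00000003032, chromosome 4 from 55527143 to 55532466), also known as a pluripotency factor, was at 192 CPM in shControl, 265 CPM in shNFIB and 231 CPM in shMLL1 at day 0, and at 30.2, 151 and 31.9 CPM at day 7. The day 7 level in shNFIB stood apart from the other two lines, although all day 7 libraries were below all day 0 libraries. Its log2 fold change was -2.13 (SE 0.44, adjusted p = 0.0159 by edgeR's quasi-likelihood test).

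The 4 genes that fell were also the ones whose days did not overlap, beside 21% of all genes whose day 7 libraries were all lower, and no regulator had all day 7 libraries above all day 0 libraries, beside 23.5% of all genes. The median log2 fold change was -0.63 over the 9 regulators and 0.00 over all genes tested. The calls of Cebpb and Cebpg held in each fit with a line left out. Without shControl, the adjusted p by edgeR's quasi-likelihood test was 0.156 for Pparg, 0.0739 for Klf15, 0.0849 for Klf5 and 0.0884 for Klf4. Without shNFIB it was 0.0691 for Pparg and 0.0572 for Klf5, and without shMLL1 it was 0.102 for Klf4. With no block for the line, it was 0.461 for Pparg, 0.124 for Klf15 and 0.0903 for Klf4.

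**Figure D2:**
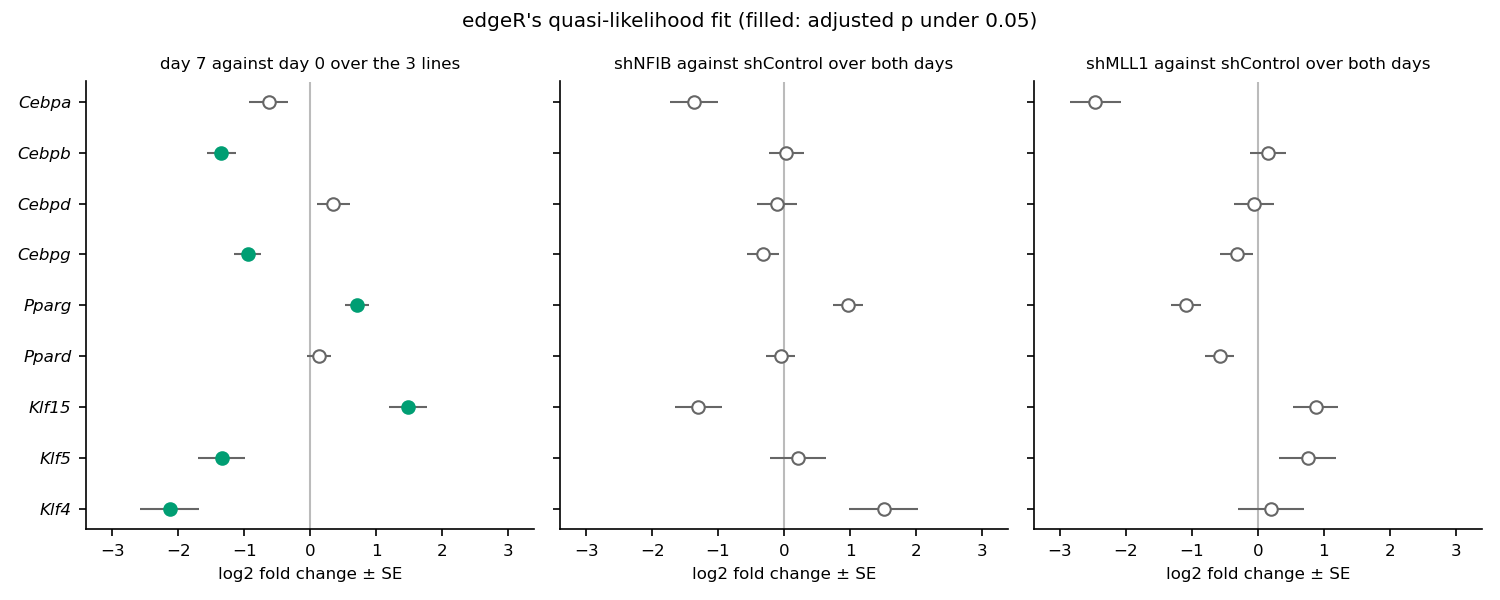
Fitted log2 fold change (horizontal axis, bars ± SE) of the 9 tested regulators in edgeR's quasi-likelihood fit of all 6 libraries, for the day effect over 3 lines (left), shNFIB against shControl (middle) and shMLL1 against shControl (right). Filled points have an adjusted p under 0.05 and are found in the day panel only: Pparg and Klf15 to the right of 0, and Cebpb, Cebpg, Klf5 and Klf4 to the left.

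Each knockdown line was next compared with shControl over both days, with 2 libraries a side and the day as a term in the same fit. Cebpa was lower in both knockdown lines at both days, Pparg was higher in shNFIB and lower in shMLL1, and Klf15 was lower in shNFIB and higher in shMLL1. None of these differences passed the test after adjustment over all genes. In edgeR's quasi-likelihood test, 0 of 9 regulators were called for shNFIB, where 0.174% of all genes were called higher and 0.336% lower. In shMLL1 it was also 0 of 9, with 0.012% and 0.024% of all genes. At an unadjusted p under 0.05 there were 4 regulators in each comparison, beside 12.7% of all genes in shNFIB and 9.42% in shMLL1. DESeq2's test called Pparg higher and Cebpa and Klf15 lower in shNFIB, and Cebpa and Pparg lower in shMLL1. The comparisons share the shControl libraries, so that a low or high shControl value moves both.

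Cebpa had the coefficient farthest from 0 in shMLL1 among the 9 regulators, and Klf4 in shNFIB. For Cebpa, the coefficient was -1.36 in shNFIB (SE 0.36, adjusted p = 0.174) and -2.46 in shMLL1 (SE 0.38, adjusted p = 0.0657) by edgeR's quasi-likelihood test, and the libraries did not overlap with shControl in either comparison. Between single libraries, which have no test, Cebpa at day 0 was 2.59-fold lower in shNFIB (log2 fold change -1.37, 95% interval -1.60 to -1.15) and 7.35-fold lower in shMLL1 (-2.88, -3.24 to -2.54). At day 7 it was 2.55-fold and 4.17-fold lower. These intervals come from the counts of the 2 libraries and cover counting error only. The counts of Cebpa in shMLL1 were 78 and 60, against 608 and 313 in shControl.

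For Pparg the lines moved apart in opposite directions. The coefficient was 0.97 in shNFIB (SE 0.22, adjusted p = 0.1253) and -1.09 in shMLL1 (SE 0.23, adjusted p = 0.1255) by edgeR's quasi-likelihood test, without overlap with shControl in either. The difference was nearly the same at both days, at 1.92-fold and 2.01-fold higher in shNFIB and at 2.26-fold and 2.01-fold lower in shMLL1. Klf15 differed in the opposite directions, with coefficients of -1.30 in shNFIB (SE 0.35, adjusted p = 0.181) and 0.88 in shMLL1 (SE 0.34, adjusted p = 0.471) by edgeR's quasi-likelihood test. Its libraries overlapped with those of shControl over both days, because shControl itself changed from 3.19 to 10.2 CPM. Klf15 rested on 49 to 446 counts, and its interval was correspondingly wide, from -1.56 to -0.54 around -1.04 for shNFIB at day 0.

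Of the others, Ppard was lower in shMLL1 at both days, by 1.49-fold each time, with a coefficient of -0.58 (SE 0.22, adjusted p = 0.463 by edgeR's quasi-likelihood test) and no overlap. Klf4 had a coefficient of 1.51 in shNFIB (SE 0.53, adjusted p = 0.329 by edgeR's quasi-likelihood test), made up of 1.38-fold at day 0 and 4.98-fold at day 7. Klf5 in shMLL1 was 1.999-fold higher than in shControl at day 0, just short of 2-fold, and 1.40-fold higher at day 7, from 172 against 91 and 46 against 41 counts. Cebpb differed from shControl by at most 0.24 on the log2 scale in any of the 4 pairs of libraries, and the counting interval of each of these pairs included 0. Non-overlap with shControl was seen for 2 regulators in shNFIB, Pparg above and Cebpa below, beside 15.2% and 13% of all genes. In shMLL1 it was seen for Cebpa, Pparg and Ppard, all below, beside 11.5% of all genes below and 8.28% above.

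**Figure D3:**
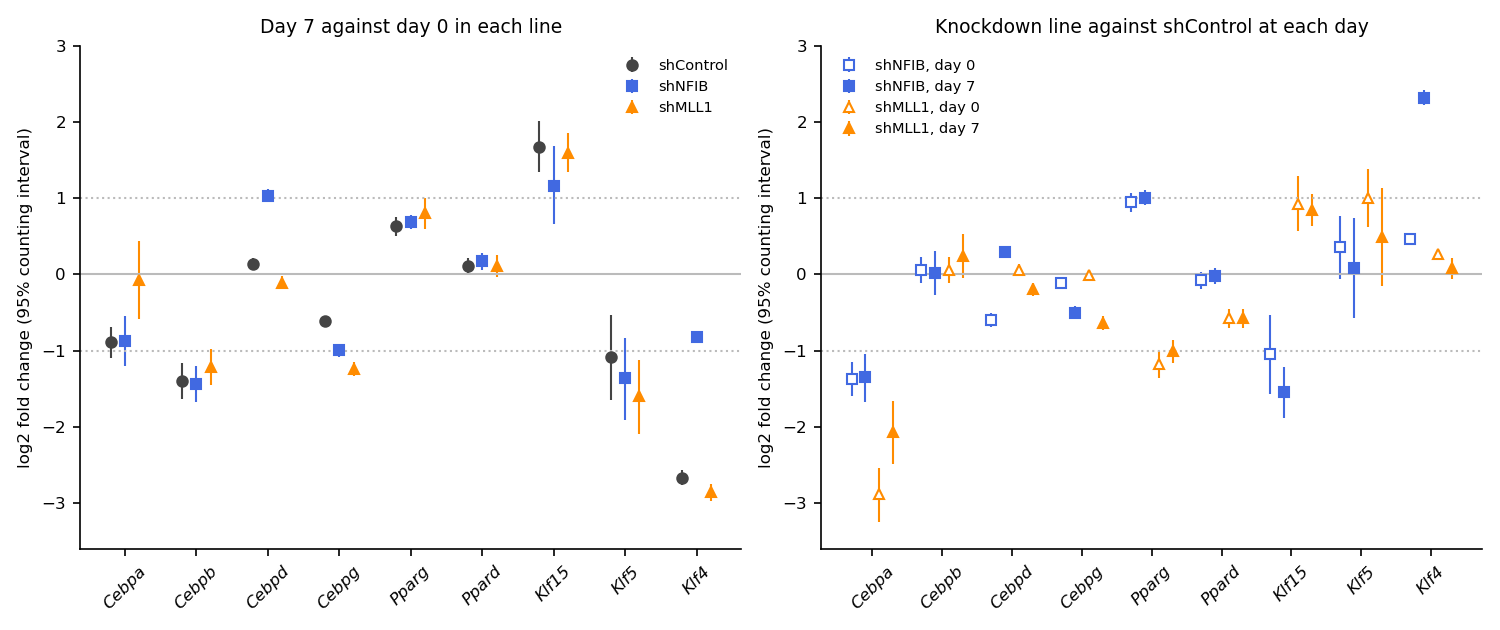
Log2 fold change between pairs of single libraries (vertical axis, bars are 95% counting intervals, dotted lines mark 2-fold) for the day 7 library against the day 0 library of each line (left) and for each knockdown line against shControl at each day (right, open symbols day 0, filled symbols day 7). Klf4 and Cebpd in shNFIB stand apart from the other lines on the left, and on the right Cebpa lies below 0 in all 4 pairs.

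Within single lines, where no test is possible, a regulator was counted when its libraries differed at least 2-fold. Between day 0 and day 7, 1 of 9 regulators was higher and 3 were lower in shControl. It was 2 higher and 2 lower for shNFIB and 1 higher and 4 lower for shMLL1. The shares over all genes were 23% higher and 14.9% lower in shControl, 16.5% and 13.9% for shNFIB, and 25.8% and 19.8% for shMLL1. Against shControl at day 0, 0 regulators were higher and 2 lower in shNFIB, where 7.26% and 6.32% of all genes were, and 0 and 2 in shMLL1, where 11% and 9.34% were. At day 7 the counts were 2 and 2 in shNFIB, beside 8.07% and 13.2%, and 0 and 2 in shMLL1, beside 8.59% and 6.95%. Klf15 was more than 2-fold higher at day 7 in each line, by 3.18-fold in shControl, 2.24-fold in shNFIB and 3.01-fold in shMLL1.

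The day response of a few regulators differed between the lines by more than counting error, which was not tested against the spread between cultures. Klf4 was 6.34-fold lower at day 7 in shControl and 7.25-fold lower in shMLL1 but 1.76-fold lower in shNFIB. On the log2 scale, its day response in shNFIB exceeded that in shControl by 1.85 (counting interval 1.74 to 1.96). Cebpd was 2.04-fold higher at day 7 in shNFIB and 1.10-fold higher in shControl, a difference of 0.89 (0.78 to 1.01). Cebpa was 1.85-fold lower at day 7 in shControl, 1.82-fold lower in shNFIB and 1.05-fold lower in shMLL1, where it already stood at 2.58 CPM at day 0. The difference between shMLL1 and shControl was 0.82 (0.30 to 1.34). Cebpg went further down by day 7 in both knockdown lines, with differences of -0.39 in shNFIB (-0.49 to -0.28) and -0.63 in shMLL1 (-0.74 to -0.52). For Cebpb, Pparg, Ppard, Klf15 and Klf5 the interval of this difference included 0 in both knockdown lines.

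The relatives and partners of these factors were examined in the same day test. Among the other C/EBP and related genes, Cebpe, a myeloid factor, had no count. Cebpz and Ddit3, the stress-induced CHOP that binds and inhibits other C/EBPs, were not called. Ddit3 was at 263 CPM in shMLL1 and at 67.8 and 87.1 CPM in the other libraries of day 0, and at 60.0 to 76.2 CPM at day 7. It has a shorter Ensembl entry of the same symbol, so that its counts may be incomplete. Of 14 other KLF genes, 11 were tested, 1 rose and 3 fell, beside 17.4% and 17.2% of all genes, with a median log2 fold change of -0.40. Klf9, a direct target of the glucocorticoid receptor that favours adipogenesis, was at 34.3, 35.9 and 29.3 CPM at day 0 and at 119.9 CPM in shControl, 217 CPM in shNFIB and 135 CPM in shMLL1 at day 7. It rose by 2.2 on the log2 scale (SE 0.22, adjusted p = 0.000492 by edgeR's quasi-likelihood test). Klf10 (-1.54), Klf13 (-1.32) and Klf16 (-2.05) fell, and these 4 calls held in each fit with a line left out. Klf2 and Klf3, both known as brakes on adipogenesis, had coefficients of -0.63 and -0.40, Klf6 of 0.02 and Klf7 of -0.10, and none of these passed the test. Without shMLL1, Klf2 had a coefficient of -1.19 and was called lower (adjusted p = 0.00929 by edgeR's quasi-likelihood test).

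Of 15 PPAR partners and cofactors, 14 were tested and 2 were called, both higher, beside 17.4% of all genes called higher and 17.2% lower, with a median of 0.13. Ppargc1a, the coactivator PGC-1α, was at 13.0 CPM in shControl, 2.09 CPM in shNFIB and 14.0 CPM in shMLL1 at day 0 and at 44.3, 30.5 and 32.4 CPM at day 7, and rose by 2.21 (SE 0.56, adjusted p = 0.0346 by edgeR's quasi-likelihood test). The coactivator gene Ncoa3 rose by 0.64 (SE 0.20, adjusted p = 0.0413 by edgeR's quasi-likelihood test). Both calls depended on shControl, without which the adjusted p was 0.153 and 0.128, and on shMLL1, without which it was 0.0806 and 0.155. The call of Ncoa3 was also lost without shNFIB, at 0.100, and with no block for the line both were lost, at 0.0664 for Ppargc1a and 0.122 for Ncoa3. Rxra, the usual dimer partner of PPARγ, was at 52.0 to 137 CPM at day 0 and 112 to 163 CPM at day 7. Its coefficient was 0.65 (adjusted p = 0.0587 by edgeR's quasi-likelihood test, and 0.0486 without shNFIB), Rxrb had a coefficient of 0.27, and Rxrg had no count.

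Of 15 other factors that promote adipogenesis, 14 were tested, 4 rose and 1 fell, beside 17.4% and 17.2% of all genes, with a median of 0.44. Zfp423, which commits cells to the preadipocyte state, was at 3.22 CPM in shControl, 1.33 CPM in shNFIB and 0.265 CPM in shMLL1 at day 0 and at 8.0, 5.04 and 4.22 CPM at day 7. It rose by 2.24 (SE 0.53, adjusted p = 0.0154 by edgeR's quasi-likelihood test), with shMLL1 lowest at each day, as in Cebpa and Pparg. With no block for the line, the adjusted p by edgeR's quasi-likelihood test was 0.1095 for Zfp423, 0.102 for Zfp467 and 0.0731 for Nr3c1. Zfp467 and Nr1h3 rose by 1.88 and 1.89, and both calls were lost without shControl, at adjusted p of 0.0853 and 0.101. Zbtb16 had no count at day 0 and was at 42.5 CPM in shControl, 4.50 CPM in shNFIB and 6.31 CPM in shMLL1 at day 7. In shControl that is at least 453-fold higher, against a floor of 3 counts in the day 0 library. Zbtb16 entered the day test only through its day 7 libraries, so that it could only be called higher. Nr3c1, the glucocorticoid receptor gene, was at 145, 172 and 108 CPM at day 0 and at 44.5, 102 and 74.3 CPM at day 7. It fell by 0.99 on the log2 scale (SE 0.26, adjusted p = 0.0221 by edgeR's quasi-likelihood test), and without shControl the coefficient was -0.69 with an adjusted p of 0.166. Ebf1, Ebf2 and Srebf1 were not called. Ebf1 was at 10.3 CPM in shMLL1 at day 0 and at 54.9 to 93.7 CPM in the other 5 libraries. Of 13 factors that oppose adipogenesis, all were tested, Wnt10b rose, and Gata3 and Hes1 fell, beside the same shares of all genes, with a median of 0.14. By edgeR's quasi-likelihood test, the adjusted p of Wnt10b was 0.0567 without shControl, that of Gata3 was 0.0561 without shNFIB, and that of Hes1 was 0.0942 without shNFIB, 0.0682 without shMLL1 and 0.0763 with no block. Dlk1, the preadipocyte factor, was at 9.20, 3.83 and 5.10 CPM at day 0, at 3.21 CPM in shControl at day 7 and without a count in the other day 7 libraries. It was not called over the 3 lines (adjusted p = 0.105 by edgeR's quasi-likelihood test) but was without shControl (0.00169). Id2, an inhibitor of basic helix-loop-helix factors, was called lower without shMLL1 (adjusted p = 0.00083 by edgeR's quasi-likelihood test). Gata2, which represses Pparg, was at 22.5 to 27.9 CPM in shControl and shNFIB and at 7.69 and 9.75 CPM in shMLL1, where its coefficient was -1.41 (adjusted p = 0.0893 by edgeR's quasi-likelihood test).

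The genes of lipid storage that these factors are known to control were read in the same libraries. The list of adipocyte targets includes all 8 adipocyte markers. Of 20 such target genes of PPARγ and C/EBPα, 15 were tested, 8 rose and 2 fell between the days, beside 17.4% and 17.2% of all genes, with a median log2 fold change of 1.55, which was the same with the genes that had no count at day 0 set to their lower bound. The adipocyte secreted protease gene Cfd and the lipid droplet genes Cidec and Plin1 had no count at day 0. Slc2a4 had at most 3 counts in a day 0 library. These genes passed the filter on counts only through their day 7 libraries, so that they could only be called higher. The share of all genes is therefore not a like measure for the number that rose. At day 7 Cfd was at 69.8 CPM in shControl, 0.744 CPM in shNFIB and 1.84 CPM in shMLL1. Cidec was at 22.3, 0.169 and 0.697 CPM and Plin1 at 15.5, 0.304 and 1.15 CPM, in the same order of lines. Against the floor of 3 counts, these levels in shControl are at least 744-fold, 238-fold and 165-fold higher than at day 0. The lipoprotein lipase gene Lpl was at 35.6 CPM in shControl and at 0.744 CPM or less in the other 5 libraries, and did not pass the day test (adjusted p = 0.0602 by edgeR's quasi-likelihood test). Cfd and Cidec were also called lower in shNFIB over both days (adjusted p = 0.0219 and 0.0391 by edgeR's quasi-likelihood test), and in shMLL1 these p were 0.0569 and 0.0866. Without a count at day 0, these coefficients rest on the day 7 libraries, with 1 a side. Their p-values therefore do not reflect 2 libraries a side. The day 7 counts of Cfd and Cidec were 2129 and 681 in shControl, and 22 and 5 in shNFIB.

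Cfd, Cidec, Plin1 and Lpl did not follow the level of Pparg across the lines. At day 7 Pparg was highest in shNFIB, at 84.2 CPM, where Cfd, Cidec, Plin1 and Lpl were all under 1 CPM. Cebpa was highest in shControl at both days. Fabp4, one of the best known PPARγ targets, stayed between 3.58 and 4.84 CPM in all 6 libraries, and Adipoq had 1 count in each of 2 day 0 libraries and none at day 7. The fatty acid transporter gene Cd36 at day 7 was at 11.8 CPM in shNFIB, at 2.92 CPM in shControl and at 0.0410 CPM in shMLL1, the order of the lines in Pparg. The shMLL1 value is 1 count. At day 0 the order was another, with 0 counts in shControl, 8 in shNFIB and 17 in shMLL1. Adipor2 (1.55), Pnpla2 (1.41), Lipe (1.44), Gpd1 (3.80) and Slc2a4 (4.52) rose, while the lipogenic genes Scd1 (-0.77) and Acsl1 (-1.30) fell. Without shControl, 4 of 11 tested targets rose and 1 fell, beside 6.18% and 7.03% of all genes in that fit, and by edgeR's quasi-likelihood test the adjusted p was 0.117 for Lipe and 0.135 for Scd1. Without shNFIB it was 0.0637 for Scd1. With no block for the line, 4 of 11 rose and 1 fell, beside 13.2% and 11.6% of all genes, with Cfd at an adjusted p of 0.0658 and Scd1 at 0.154 by edgeR's quasi-likelihood test. Without shMLL1, 5 of 12 rose and 2 fell, beside 14.3% and 17.6% of all genes, with Gpd1 at an adjusted p of 0.158 and Cd36 called higher at 0.000165 by edgeR's quasi-likelihood test. Cidec, Plin1 and Slc2a4 did not pass the filter on counts without shControl, without shMLL1 or with no block. Their calls could not be checked in those fits.

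**Figure D4:**
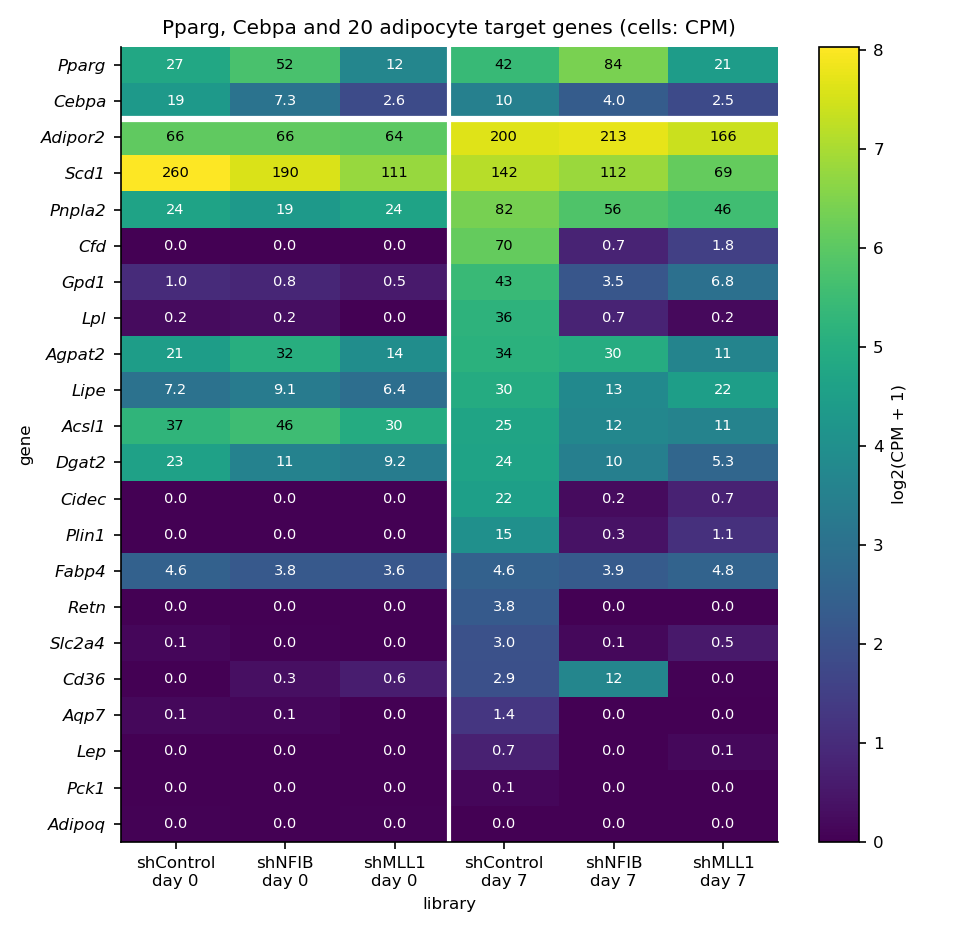
Level of Pparg and Cebpa (upper block) and of 20 adipocyte target genes, ordered by their level in shControl at day 7, in each of the 6 libraries (columns), with colour giving log2(CPM + 1) and the number in each cell giving the CPM. Cfd, Gpd1, Lpl, Cidec and Plin1 are brighter in shControl at day 7 than in either knockdown line, whereas Pparg is brightest in shNFIB.

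Of 14 targets shared by PPARα and PPARδ, 11 were tested and 4 rose, beside 17.4% of all genes, with a median of 0.58. Of the 11, 1 had no count at day 0 and could only be called higher. Pdk4, which restrains glucose oxidation, was at 3.60 CPM in shControl, 12.7 CPM in shNFIB and 2.92 CPM in shMLL1 at day 0, and at 172, 277 and 127 CPM at day 7, a coefficient of 5.15 (SE 0.30, adjusted p = 0.000148 by edgeR's quasi-likelihood test). Angptl4, an inhibitor of lipoprotein lipase, rose by 2.32, and Acadm rose by 0.71. By edgeR's quasi-likelihood test the call of Acadm was lost without shControl (adjusted p = 0.209) and with no block (0.0697), as well as without shMLL1 (0.131), where Plin2 was called higher (0.0148). Cpt1a was not called (coefficient -0.26). Pdk4 and Angptl4 are also targets of the glucocorticoid receptor. Of 12 glucocorticoid response genes, which hold Pdk4, Angptl4, Klf9 and Zbtb16, 11 rose, beside the same 17.4% of all genes. Their median was 2.75, and 11 rose in each fit with a line left out. Among the 11 is Zbtb16, which had no count at day 0 and could only be called higher. Of 7 acute-phase targets of C/EBPβ and C/EBPδ, 3 rose, Hp (5.14), C3 (2.27) and Orm1, beside that same share, with a median of 2.27. Orm1 had 2 counts in all over the day 0 libraries and was at 8.46 CPM in shControl, 7.31 CPM in shNFIB and 46.4 CPM in shMLL1 at day 7. Orm1 too entered the day test only through day 7 and could only be called higher. Without shMLL1, the adjusted p by edgeR's quasi-likelihood test was 0.0957 for Hp, and Saa3 was called higher at 0.0169.

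In the knockdown comparisons, Cfd and Cidec were the only genes of these factor and target lists called in either line by edgeR's quasi-likelihood test. Neither had a count at day 0, so that both calls rest on the day 7 libraries, with 1 a side. Of the markers, Thy1, a mesenchymal surface protein, was also called, higher in shNFIB (2.36, adjusted p = 0.0166 by the same edgeR test). The median coefficient of the factors that promote adipogenesis was -0.12 in shNFIB and -0.52 in shMLL1, that of the factors that oppose it -0.02 and -0.88, and that of the adipocyte targets -0.46 and -1.14, beside 0.04 and -0.02 over all genes. Targets such as Cfd, Cidec, Plin1 and Slc2a4 passed the filter on counts only through day 7, where shControl was highest. So did Zbtb16 among the promoting factors. Such genes lower the medians of their lists, so that the median over all genes is not a like measure for them.

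The genes whose log2(CPM + 1) followed most closely that of Cebpa, Pparg and Klf15 over the 6 libraries were sought among 6503 genes with a mean of at least 5 CPM and a range of at least 1 on that scale. For Cebpa these were Ctnnbip1 (Pearson's r of 0.992), Helb (0.990), Hebp2 (0.973), Cnksr3 (0.959) and Pik3r3 (0.954). Ctnnbip1, an inhibitor of β-catenin, was at 58.6 CPM in shControl, 35.5 CPM in shNFIB and 17.1 CPM in shMLL1 at day 0, and at 41.3, 24.7 and 16.1 CPM at day 7. For Pparg they were C1qtnf1 (0.990), Gmfb (0.987), Iqsec1 (0.985), Uaca (0.980) and Ehmt1 (0.979). C1qtnf1, a secreted relative of adiponectin, was at 30.1, 61.3 and 13.8 CPM at day 0 and at 37.4 CPM in shControl, 87.0 CPM in shNFIB and 23.3 CPM in shMLL1 at day 7. For Klf15 they were 2010315B03Rik (0.987), the antisense gene Zeb2os (0.986), Araf (0.984), 2900076A07Rik (0.981) and Slc25a17 (0.979). With 6 libraries that share 3 lines and 2 days, such correlations are descriptions of the pattern only.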

How the data were processed

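Per the labels and the study's methods, the authors used Trimmomatic 0.39 for trimming, HISAT2 2.2.1 for alignment (GRCm38/mm10) and SAMtools 1.12 to keep well-mapped reads without PCR duplicates, and deposited whole-number counts per Ensembl gene from HTSeq 0.11.1. The strand setting and annotation release of the counting are not given in the sources used here. Names, positions and exon lengths came from the GENCODE M21 annotation of the same build, which matched 55141 of 55401 genes.

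Counts were scaled by TMM, filtered with filterByExpr and fitted in edgeR 4.0.16 (R 4.3.3) with terms for day and line. A call needed an adjusted p under 0.05 (Benjamini-Hochberg). The line was taken as a block because the day 0 and day 7 libraries came from the same cell lines. Their deviations from the day means correlated at 0.436, 0.419 and 0.257. No condition has a repeat culture, so p-values measure only the spread between these libraries. Pairs of libraries were compared at a prior count of 0.125, with exact Clopper-Pearson intervals at 95%, and counted past 2-fold with at least 10 counts in one of the pair. Alternatives used DESeq2 1.42.0, other scalings and filters, and fits without a line. The fits were also run on simulated counts in which only a chosen set of genes differed. Those counts lack the differences between lines seen here, so that they check the code and not the calls.

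The regulators, gene lists and named genes were chosen with earlier results of these data known. Named from each list were the closest partners of the regulators and up to 5 called genes with the largest day coefficient, and for Cebpa, Pparg and Klf15 the 5 genes with the highest correlation. Rxrg, Cebpz, Id2, Thy1, Col1a2, Vim, Adipor2, Pnpla2, Lipe, Scd1, Acsl1, Plin2 and Saa3 fell outside this rule and were chosen after their values were seen. The same holds for Pdgfra, Pdgfrb, Col1a1, Prrx1, Twist1, Agpat2 and Dgat2. Of the markers, macrophage genes summed to 1.52 to 8.20 CPM, mostly Cd68, endothelial genes to 2.76 to 25.4 CPM, mostly Tek, and epithelial genes to 0.203 to 9.05 CPM, mostly Cdh1. The values of 1 called gene of the PPARα and PPARδ target list are not reported here.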

Additional observations from a re-analysis of the deposited data

Results flagged for a closer look

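Cebpd moved in different directions in different lines, which was not tested because each condition has 1 library. Between day 0 and day 7 its log2 fold change was 1.03 in shNFIB, 0.13 in shControl and -0.11 in shMLL1. In shNFIB against shControl it was -0.60 at day 0 and 0.30 at day 7. The count of Cebpd may include reads of Spidr, which shares exon sequence with it on the opposite strand, and the part of Spidr in this result was not tested.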

How the results depend on the processing

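Of the counts of regulators called or past 2-fold, 81 stayed within 1.5 times the reported count under an alternative and 39 moved. Scaling by library size alone put the median day coefficient of all genes at 0.14, and 3393 genes were then called higher and 2184 lower in place of 2896 and 2866. The calls of Cebpb and Cebpg in the day test held in 8 of 8 alternatives. In the day test, fits that left out a line called 0 to 2 regulators higher and 2 to 4 lower, and without shControl 981 genes in all were called higher and 1115 lower. With no replicate block for the line, 0 regulators were called higher, and of all genes 2074 were called higher and 1820 lower.

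For shNFIB over both days, DESeq2's Wald test called 1 regulator higher and 2 lower (296 and 319 genes in place of 29 and 56). Testing all genes with at least 1 count called 1 higher and 1 lower (312 and 300 genes), as did fitting only the 4 libraries compared (323 and 323 genes). For shMLL1, these settings called 2, 2 and 1 regulators lower, and 176 and 232, 177 and 266, and 54 and 69 genes higher and lower in place of 2 and 4. The cause was not tested. Cebpb in shNFIB, at 0.04, turned to -0.070 with library size alone, -0.00081 with DESeq2 and -0.0021 with only the 4 libraries.

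Past 2-fold, DESeq2 size factors gave 1 regulator higher in shMLL1 at day 0 and 1 in shNFIB at day 7, where library size alone also gave 1 and 1, with 2 higher between the days in shMLL1 and 1 lower in shMLL1 at day 7. With at least 1 count, Ppara made it 2 higher between the days in shMLL1 and 1 higher in shMLL1 at day 7. An exact test at an assumed biological coefficient of variation of 0.2 gave 0 higher and 1 lower between the days in shNFIB, 0 lower in shNFIB and 1 in shMLL1 at day 0, and 1 higher and 1 lower in shNFIB and 1 lower in shMLL1 at day 7. At 0.4 it gave 0 throughout, except 1 lower between the days in shMLL1. The low counts of Klf5, Klf15 and Cebpa in shMLL1 limit their precision, and Ppara was not measurable at this depth.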
